A study of Mus musculus with 66 samples.

Results

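Proteasome subunits were followed through mouse oocyte development as the 44 of 24062 genes in the deposited table whose symbols begin with Psma, Psmb, Psmc, Psmd or Psme and a number. Psmc3ip was left out because its symbol carries another suffix. The members were kept in 3 parts, a core particle of 19 genes (8 Psma and 11 Psmb), a cap of 20 genes (6 Psmc and 14 Psmd) and 5 activator genes (Psme). The rule used symbols only, and no measured value chose a member.

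The proteasome degrades proteins that carry ubiquitin chains. Its barrel-shaped core particle is built of rings of alpha subunits (Psma), which form the gate, and beta subunits (Psmb), of which Psmb5, Psmb6 and Psmb7 carry the proteolytic sites. Interferon-inducible counterparts, Psmb8, Psmb9 and Psmb10, can replace these and form the immunoproteasome, while Psmb11 takes a catalytic place in the thymus and Psma8 replaces Psma7 in male germ cells. The cap holds the ATPases (Psmc), which unfold the substrate, and the non-ATPase subunits (Psmd), which bind and remove ubiquitin; Psmd5, Psmd9 and Psmd10 are chaperones that help to build it. Activators open the core without ubiquitin: Psme1 and Psme2 form PA28 alpha-beta, Psme3 forms PA28 gamma in the nucleus, and Psme4 is PA200. Dormant oocytes of the primordial follicle persist for long periods before they grow, and protein turnover has been studied there for that reason.

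Poly(A) RNA of isolated germ cells and oocytes was sequenced in 66 libraries that fall into 24 groups. Ovaries of stella-ECFP(SC) reporter mice (strain C57BL/6 x B6D2F1) gave cells at embryonic days E14.5, E16.5 and E18.5 and postnatal days P1 and P3, and small and large oocytes at P4 and at P6, with 3 libraries in each group. A culture course (strain C57BL/6 X 129/SvJ) gave germ cells at D5, D7, D9, D10 and D11 and oocytes at D13, D15, D17 and D20, also with 3 libraries each. These came from reconstituted ovaries, in which Blimp1-mVenus-positive germ cells induced from embryonic stem cells grow among somatic cells of E12.5 gonads; Rock inhibitor was present at the start of culture. Further cultures of the same strain ended at D21 with 2 libraries per group. Foxo3dNES transgenic (Tg) oocytes were kept in hypoxia (5% O2, 7% CO2 and 93% N2 as stated), in normoxia (air with 5% CO2) or with no oxygen given in the label. Wild-type (WT) oocytes had the same 3 conditions. Between hypoxia and normoxia CO2 differed together with oxygen, and the 2 cannot be told apart. The promoter of the transgene and the number of lines behind it are not given in the sources used here. Levels are given in RPM, the reads of a gene for every 1e+06 reads counted in its library; they are not divided by transcript length.

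In units of 1e+06 reads, libraries held 13.9 to 23.2 in vivo, 14.7 to 22.8 in the course and 4.84 to 21.3 at D21, so that 3 reads correspond to 0.129 to 0.619 RPM. Summed germ cell markers had group means of 2430 to 19527 RPM and were present in every group. Foxo3 at D21 stood at 367 and 364 RPM in Tg hypoxia, 322 and 324 RPM in Tg normoxia, 318 and 267 RPM in Tg with no oxygen given, 128 and 123 RPM in WT hypoxia, 88.5 and 44.8 RPM in WT normoxia and 57.0 and 89.1 RPM in WT with no oxygen given. The share of reads from genes whose transcript is at most 1000 nt long set 3 libraries apart: D5 replicate 2 with 17.2%, WT normoxia replicate 2 with 13.6% and WT replicate 1 with no oxygen given with 10.4%, against 3.42 to 8.73% in the others. Core subunits have short transcripts (median 1201 nt) and cap subunits longer ones (median 1710.5 nt), so results that rest on these libraries are given with and without them.

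Together the members took between 0.495% of the reads, in large oocytes at P6, and 0.760%, at D13 of culture. Per kilobase of transcript the most abundant members in P6 small oocytes were Psmd4 (297 RPM per kb), the ubiquitin receptor of the cap, the catalytic Psmb6 (294 RPM per kb) and the scaffold subunit Psmd2 (283 RPM per kb). In P6 large oocytes they were Psmb6 (228 RPM per kb), the gate subunit Psma7 (207 RPM per kb) and the catalytic Psmb5 (170 RPM per kb). Over the 24 groups the highest group mean of a member was 2.64 times its lowest in the median of the 41 members whose lowest mean was above 0. In 8 of these 41 the ratio was under 2, and the steadiest were Psme3 (1.44 times), the ATPase Psmc4 (1.63 times) and Psmd5 (1.78 times). In 27 it lay between 2 and 6, among them Psmd14 (3.87 times), Psmd4 (4.16 times), Psmb5 (4.64 times), Psma7 (5.28 times) and Psmb3 (5.7 times). In the other 6 it was higher, for Psmd9 7.79 times, Psmb11 11.4 times, Psmb10 11.8 times, Psme2 23.4 times, Psma8 249 times and Psme1 593 times. The lowest group means of Psma8 (0.213 RPM, D20) and Psme1 (0.255 RPM, P6 large) were close to the level of 3 reads, so these ratios are imprecise. Psme2b, a copy of Psme2, never exceeded a group mean of 0.337 RPM and entered no test, and Psmb8 was too low in vivo to be tested there. Psma2 overlaps AW209491 and Psmd1 overlaps Gm21972 on the same strand. Psmd13 overlaps Sirt3, Psmd5 overlaps Cutal and Psmb7 overlaps Nek6 on opposite strands. Pseudogenes carry the names of Psmb5, Psmb6 and Psmb7. Reads of all these genes could be split or shared.

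**Figure D1:**
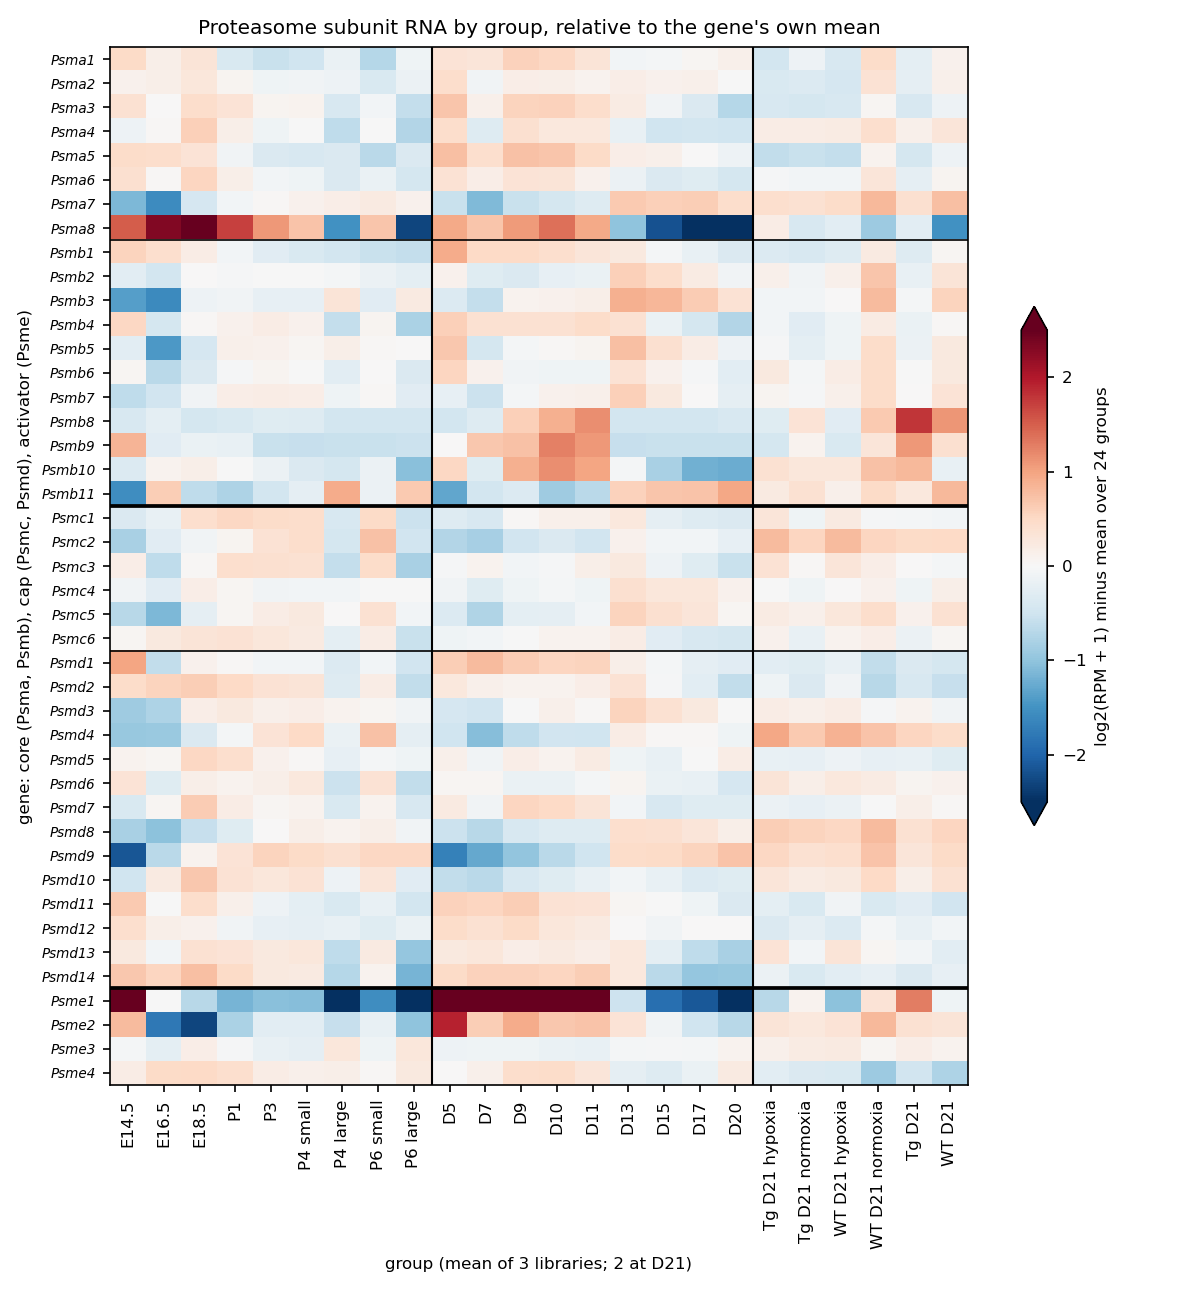
Level of each proteasome subunit in the 24 groups, shown as the difference of its group mean from its own mean over groups on the log2(RPM + 1) scale, with rows ordered by part. Psme1, Psme2 and Psma8 change most over the columns, while Psme3 and Psmc4 keep nearly 1 colour.

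Promoters were read for the members whose start sites were listed in RefSeq (GRCm38.p6), 37 of 44. They are shown because 3 motifs often linked to proteasome genes could be counted in the 250 bases before the start, on both strands: the antioxidant response element TGACNNNGC, to which Nfe2l1 and Nfe2l2 bind, the CCAAT box (CCAAT), and the ETS site CCGGAAGT. The antioxidant element was in 5 of 37 member promoters (13.5%), against 12.3% of promoters of genes in the table and 11.5% of all 27025. The CCAAT box was in 14 of 37 (37.8%), against 39.2% of the table's genes. The ETS site, which was chosen after the other motifs had been counted, was in 5 of 37 (13.5%), against 4.28% of the table's genes and 3.23% of all promoters. It lay in 4 of 17 cap promoters, in 0 of 15 core promoters and in 1 of 5 activator promoters. These matches describe letters in a window and no binding.

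Of the promoters with the antioxidant element, those of catalytic Psmb5 (chr14:54618009-54618068, minus strand), catalytic Psmb6 (chr11:70525297-70525356, plus strand) and the chaperone Psmd9 (chr5:123228130-123228189, plus strand) are printed 5′ to 3′ as 60 bases around it, with the element in capitals.
Psmb5: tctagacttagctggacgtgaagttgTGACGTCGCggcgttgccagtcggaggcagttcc
Psmb6: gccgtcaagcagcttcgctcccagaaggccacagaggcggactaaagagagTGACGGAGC
Psmd9: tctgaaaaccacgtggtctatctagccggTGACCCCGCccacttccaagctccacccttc

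For each of the 5 genes with the ETS site, 1 promoter is printed in the same way, with the site in capitals as it reads on the gene's strand. They belong to the ATPases Psmc1 (chr12:100110142-100110201, plus strand) and Psmc2 (chr5:21786687-21786746, plus strand, 1 of 2 listed starts, both of which have the site), the lid subunits Psmd6 (chr14:14120957-14121016, minus strand) and Psmd12 (chr11:107479468-107479527, plus strand), and the activator Psme4 (chr11:30771696-30771755, plus strand).
Psmc1: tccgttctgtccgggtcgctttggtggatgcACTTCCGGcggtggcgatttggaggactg
Psmc2: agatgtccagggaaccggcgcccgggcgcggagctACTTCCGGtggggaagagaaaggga
Psmd6: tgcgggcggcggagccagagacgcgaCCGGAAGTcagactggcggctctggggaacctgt
Psmd12: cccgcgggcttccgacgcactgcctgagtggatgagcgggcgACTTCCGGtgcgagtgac
Psme4: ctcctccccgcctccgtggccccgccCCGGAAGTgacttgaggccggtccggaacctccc

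Small and large oocytes of the same age were compared at P6 and at P4, since small oocytes are mostly dormant and large ones growing. Cap subunits took a larger share of the RNA in small oocytes and core subunits did not to the same extent. The summed cap reached 4303 ± 52.4 RPM in small oocytes at P6, against 2690 ± 70.2 RPM in large ones (SD, n = 3 each), and the summed core 2070 ± 68.2 RPM in small oocytes, against 1796 ± 75.8 RPM in large ones. Of 20 cap members 15 were higher and 0 lower in small oocytes (median log2 difference 0.54), and of 18 tested core members 8 were higher and 5 lower (median 0.10). Over all 42 tested members 25 were higher and 7 lower, against 51.3% of all genes called higher, 22.1% called lower and 73.4% in either direction. The median of all genes was itself 0.41, and the share of the 42 members called was near that of all genes. The split of the cap, 15 higher and 0 lower, depended on the scaling described below.

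At P6 the largest rise among the ATPases was that of Psmc3, with 345, 342 and 376 RPM in small oocytes, against 141, 157 and 139 RPM in large oocytes. All small libraries lay above all large ones, and the log2 difference was 1.28 (SE 0.0879, adjusted p = 1.39e-12). Psmc3 overlaps Slc39a13, and the strand setting of the counting is not given, so part of its reads could belong to that gene. Psmd14, the deubiquitinase of the lid, had 91.1, 98.7 and 82.2 RPM in small oocytes, against 37.6, 36.7 and 37.9 RPM in large oocytes. Its groups did not overlap, with a log2 difference of 1.25 (adjusted p = 6.47e-11). Chosen after their values were seen, Psmd13 (1.20), Psmc2 (1.19), Psmc1 (1.01), Psmd6 (0.99), Psmd4 (0.96) and Psmd2 (0.81) were also higher in small oocytes at P6. Of the 5 genes with the ETS site printed above, Psmc1, Psmc2 and Psmd6 were higher in small oocytes at P6. Psme4 was lower (-0.22), and Psmd12 passed the test in neither size comparison. Most cap members and 51.3% of all genes were also higher in small oocytes at P6, and a link to the site was not tested.

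The core particle was split at P6. Psma1, an alpha ring subunit, had 56.5, 61.0 and 53.1 RPM in small oocytes, against 89.1, 91.4 and 81.9 RPM in large oocytes, a log2 difference of -0.61 (adjusted p = 6.33e-07). Psmb3, a non-catalytic beta subunit, had 82.4, 77.5 and 78.7 RPM in small oocytes, against 122, 120 and 100 RPM in large oocytes, a difference of -0.51 (adjusted p = 4.87e-05). Both fell without overlap between the sizes. Psmb4, another non-catalytic beta subunit, went the other way, with 283, 245 and 265 RPM in small oocytes, against 138, 148 and 146 RPM in large oocytes (0.87, adjusted p = 2.51e-09). Among the catalytic subunits Psmb5 was not called (0.02, adjusted p = 0.90), whereas Psmb6 (0.36) and Psmb7 (0.32) were called higher, a call that turned on the scaling described below.

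Psma8, the germline counterpart of Psma7, showed the widest difference between the sizes. At P6 it had 14.6, 11.3 and 14.9 RPM in small oocytes, against 0.890, 0.927 and 0.655 RPM in large oocytes, a log2(RPM + 1) difference of 2.99 (SE 0.176, adjusted p = 7.06e-14). At P4 it had 13.8, 14 and 13.6 RPM in small oocytes, against 1.90, 1.92 and 2.65 RPM in large oocytes, a difference of 2.24 (adjusted p = 3.53e-11). The sizes did not overlap at either age. Psma7 itself was not called, with 217, 203 and 200 RPM in small oocytes, against 191, 197 and 178 RPM in large oocytes at P6 (0.13, adjusted p = 0.119).

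At P4 14 cap members were higher and 0 lower in small oocytes (median 0.47), and 7 core members were higher and 3 lower (median 0.06), within totals of 22 higher and 4 lower; of all genes 48.7% were called higher and 20.5% lower, 69.2% in all, with a median of 0.34. Psmc3 again rose most among the ATPases, with 350, 335 and 322 RPM in small oocytes, against 174, 162 and 168 RPM in large oocytes. Psmd14 had 92.6, 117 and 90.8 RPM in small oocytes, against 56.7, 43.2 and 54.3 RPM in large oocytes. The size difference differed between the ages for 1 member of 42, upward, against 5.88% of all genes upward, 2.64% downward and 8.52% in all, and that member was Psmb10. Psmb10 had 2.97, 2.22 and 2.45 RPM in small oocytes, against 0.890, 0.978 and 0.796 RPM in large oocytes at P6, but 2.07, 2.17 and 1.87 RPM in small oocytes, against 1.67, 1.92 and 2.02 RPM in large oocytes at P4. The difference of 0.91 at P6 exceeded that of 0.08 at P4 by 0.82 (SE 0.218, adjusted p = 0.0204). The call on Psmb10 was lost with edgeR (adjusted p = 0.0621) and without P4 large replicate 3, P6 small replicate 1 or P6 large replicate 3 (adjusted p = 0.0583, 0.0585 and 0.0525 with limma).

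**Figure D2:**
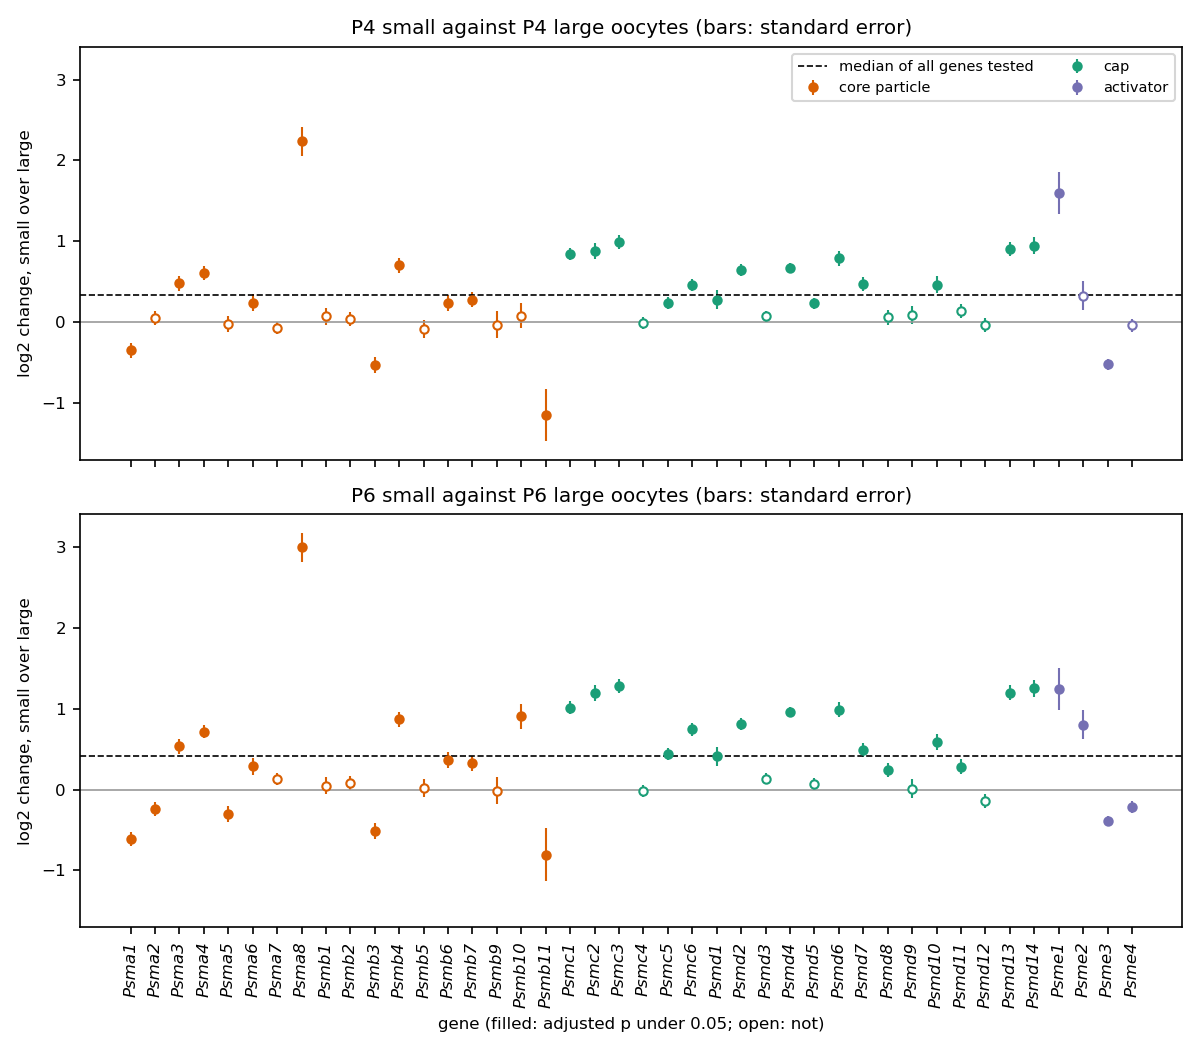
Log2 difference (small minus large, on log2(RPM + 1)) of each tested member at P6 and at P4, by part, with lines for the median of all genes (0.41 and 0.34). Psma8 has the highest point of the core and Psmc3 the highest of the cap at both ages.

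RPM are shares, and most genes were higher in small oocytes, so the direction of many members depends on the reference. With libraries scaled by median-of-ratios factors instead, which brings the median of all genes near 0, the cap had 8 members higher and 7 lower at P6 (median -0.06) and 7 higher and 8 lower at P4 (median -0.00). The core then had 3 higher and 11 lower at P6 (median -0.40) and 2 higher and 9 lower at P4 (median -0.32). Of all genes 34.3% were then higher and 36.2% lower at P6, and 31.0% higher and 33.2% lower at P4, so the split of the cap was close to that of all genes. Psmb6 and Psmb7 changed sign. The same members were called in the same direction under all 4 scalings (RPM, median-of-ratios, edgeR and DESeq2) as follows. At P6 they were 8 cap members that rose (Psmc1, Psmc2, Psmc3, Psmd2, Psmd4, Psmd6, Psmd13 and Psmd14) and none that fell, with Psma8, Psmb4 and Psmb10 higher and Psma1, Psma2, Psma5, Psmb3 and Psmb11 lower in the core. At P4 they were the same cap members without Psmd2, with Psma8 and Psmb4 higher and Psma1, Psmb3 and Psmb11 lower in the core.

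The ratio of summed core to summed cap RPM does not depend on the scaling of a library. It was 0.485, 0.469 and 0.489 in small and 0.669, 0.678 and 0.656 in large oocytes at P6, and 0.498, 0.534 and 0.510 in small and 0.666, 0.645 and 0.654 in large oocytes at P4. No small library reached any large one. Over the earlier stages the ratio was 0.586 to 0.607 at E14.5, 0.548 to 0.572 at E16.5, 0.534 to 0.578 at E18.5, 0.534 to 0.553 at P1 and 0.516 to 0.538 at P3. In the culture course D5 replicate 2, rich in short transcripts, stood at 0.974, and the other libraries lay between 0.596 and 0.707. The share of reads from short transcripts also differed with size, being 7.41 to 7.67% in small and 3.67 to 3.92% in large oocytes at P6; it moved in the direction opposite to the ratio, and its part in the ratio was not tested. Among members of 1000 to 2000 nt alone, 11 of 13 cap members were higher and 0 lower at P6 (median 0.96), and 6 of 10 core members were higher and 2 lower (median 0.30), against 51.3% higher and 21.3% lower among all genes of that length (median 0.42).

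**Figure D3:**
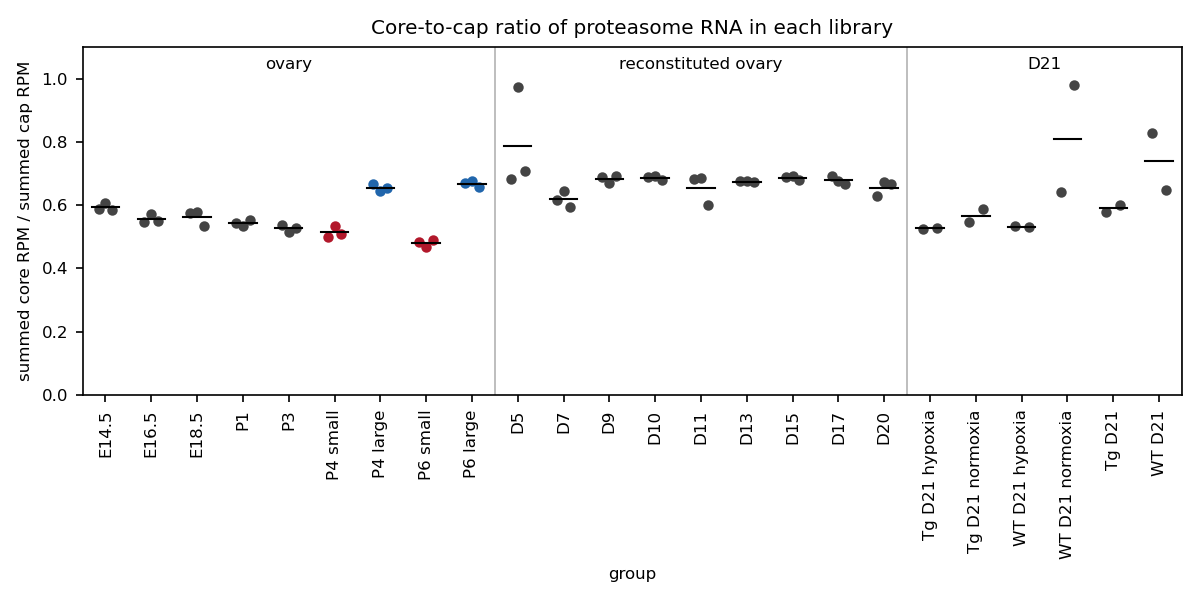
Ratio of the summed core RPM to the summed cap RPM in each of the 66 libraries (points), by group. Small oocytes of P6 lie lowest (0.469 to 0.489), large oocytes between 0.645 and 0.678, and D5 replicate 2 (0.974), WT normoxia replicate 2 (0.978) and WT replicate 1 with no oxygen given (0.829) stand above the rest.

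Among the activators the sizes differed in opposite directions. Psme3 was lower in small oocytes at P6, with 200, 195 and 210 RPM, against 272, 264 and 260 RPM in large oocytes (-0.39, adjusted p = 4.58e-06), and likewise at P4 (-0.52). Psme4 was lower in small oocytes at P6 (-0.22, adjusted p = 0.0146) and was not called at P4 (-0.04, adjusted p = 0.704), and the difference between the ages was not called (-0.18, adjusted p = 0.336). Psme2 had 23.1, 16.8 and 19.1 RPM in small oocytes, against 10.5, 10.0 and 11.9 RPM in large oocytes at P6 (0.80, adjusted p = 0.000255), a call that was lost on rescaling (0.23, adjusted p = 0.243 with median-of-ratios factors). Psme1 was low in both, with 1.68, 1.83 and 2.39 RPM in small oocytes, against 0.419, 0.206 and 0.140 RPM in large oocytes (1.24, adjusted p = 0.00012). The values in large oocytes are within reach of 3 reads. Markers of stroma and theca cells were also higher in small oocytes at P6 (7 of 9 tested higher, 0 lower; sums of 9.62 to 31.1 RPM in small oocytes, against 2.27 to 3.46 RPM in large ones), and granulosa markers summed to 13.5 to 24.6 RPM in small oocytes, against 18.9 to 23.0 RPM in large ones. Their part in the Psme1 and Psme2 differences was not tested. In bulk libraries fewer cells with a transcript and less of it per cell cannot be told apart.

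Between E14.5 and E18.5, when germ cells pass from early to late meiotic prophase, 22 of 42 members were higher at E18.5 and 9 lower, against 40.0% and 30.0% of all genes (70.0% in either direction); the member median was 0.23 and the median of all genes 0.14. The cap gave 12 higher and 3 lower of 20, and the core 8 higher and 4 lower of 18. The chaperone Psmd9 rose most, with 14.54, 12.2 and 10.8 RPM at E14.5, 35.5, 33.9 and 40.2 RPM at E16.5 and 62.2, 72.0 and 53.4 RPM at E18.5. The log2 difference was 2.23 (SE 0.115, adjusted p = 7.18e-15), without overlap. It stayed at 69.4 to 78.4 RPM at P1 and 83.3 to 88.8 RPM at P3, where it was higher again than at E18.5 (0.47, adjusted p = 0.00103). Psmd9 overlaps Hpd. The other base chaperone Psmd10 rose as well (1.16), as did Psmd5 (0.43).

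Psmd1, the large scaffold subunit of the base, went the other way, with 779, 553 and 496 RPM at E14.5, 191, 171 and 240 RPM at E16.5 and 331, 322 and 339 RPM at E18.5, a log2 difference of -0.85 for E18.5 against E14.5 (adjusted p = 4.32e-07). In the core Psmb3 rose, with 88.7, 99.3 and 79.8 RPM at E18.5, against 39.8, 36.5 and 34.6 RPM at E14.5 (1.25, adjusted p = 2.64e-11). Psma8 rose with it (1.08), and so did its partner gene Psma7 (0.72). After rescaling the counts were 15 higher and 14 lower in all, against 33.6% and 35.5% of all genes. Under all 4 scalings 9 cap members (Psmc1, Psmc2, Psmc5, Psmd3, Psmd4, Psmd5, Psmd7, Psmd9 and Psmd10) and 6 core members (Psma4, Psma7, Psma8, Psmb3, Psmb7 and Psmb11) were higher, while 3 cap members (Psmd1, Psmd11 and Psmd12), 3 core members (Psmb1, Psmb4 and Psmb6) and 2 activators (Psme1 and Psme2) were lower.

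The interferon-inducible activator pair fell early. Psme1 had 60.4, 63.3 and 65.7 RPM at E14.5, 5.56, 6.70 and 11 RPM at E16.5, 2.93, 6.14 and 4.18 RPM at E18.5 and 3.4, 4.43 and 1.82 RPM at P3. It fell by 3.61 on the log2 scale between E14.5 and E18.5 (SE 0.258, adjusted p = 3.96e-12), and most of the fall was present by E16.5. Psme1 overlaps Emc9. Psme2 followed it to E18.5, with 39.7, 37.9 and 42.8 RPM at E14.5, 4.81, 5.54 and 7.08 RPM at E16.5 and 3.67, 3.77 and 4.0 RPM at E18.5 (-3.09, adjusted p = 6.05e-14). The pair then parted, since Psme2 had 8.13, 15.8 and 14.1 RPM at P1 and 19.2, 19.7 and 17.3 RPM at P3. For P3 against E18.5 Psme2 rose by 2.03 (SE 0.178, adjusted p = 8.92e-10) and Psme1 was not called (-0.37, adjusted p = 0.227). Granulosa markers summed to 61.5 to 107 RPM at E18.5, against 33.8 to 41.2 RPM at E14.5, and were lower at P3 (16.1 to 40.3 RPM). Sums for the other cell types are not given here for these stages. The part of other cells in the changes of Psme1 and Psme2 was not tested.

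**Figure D4:**
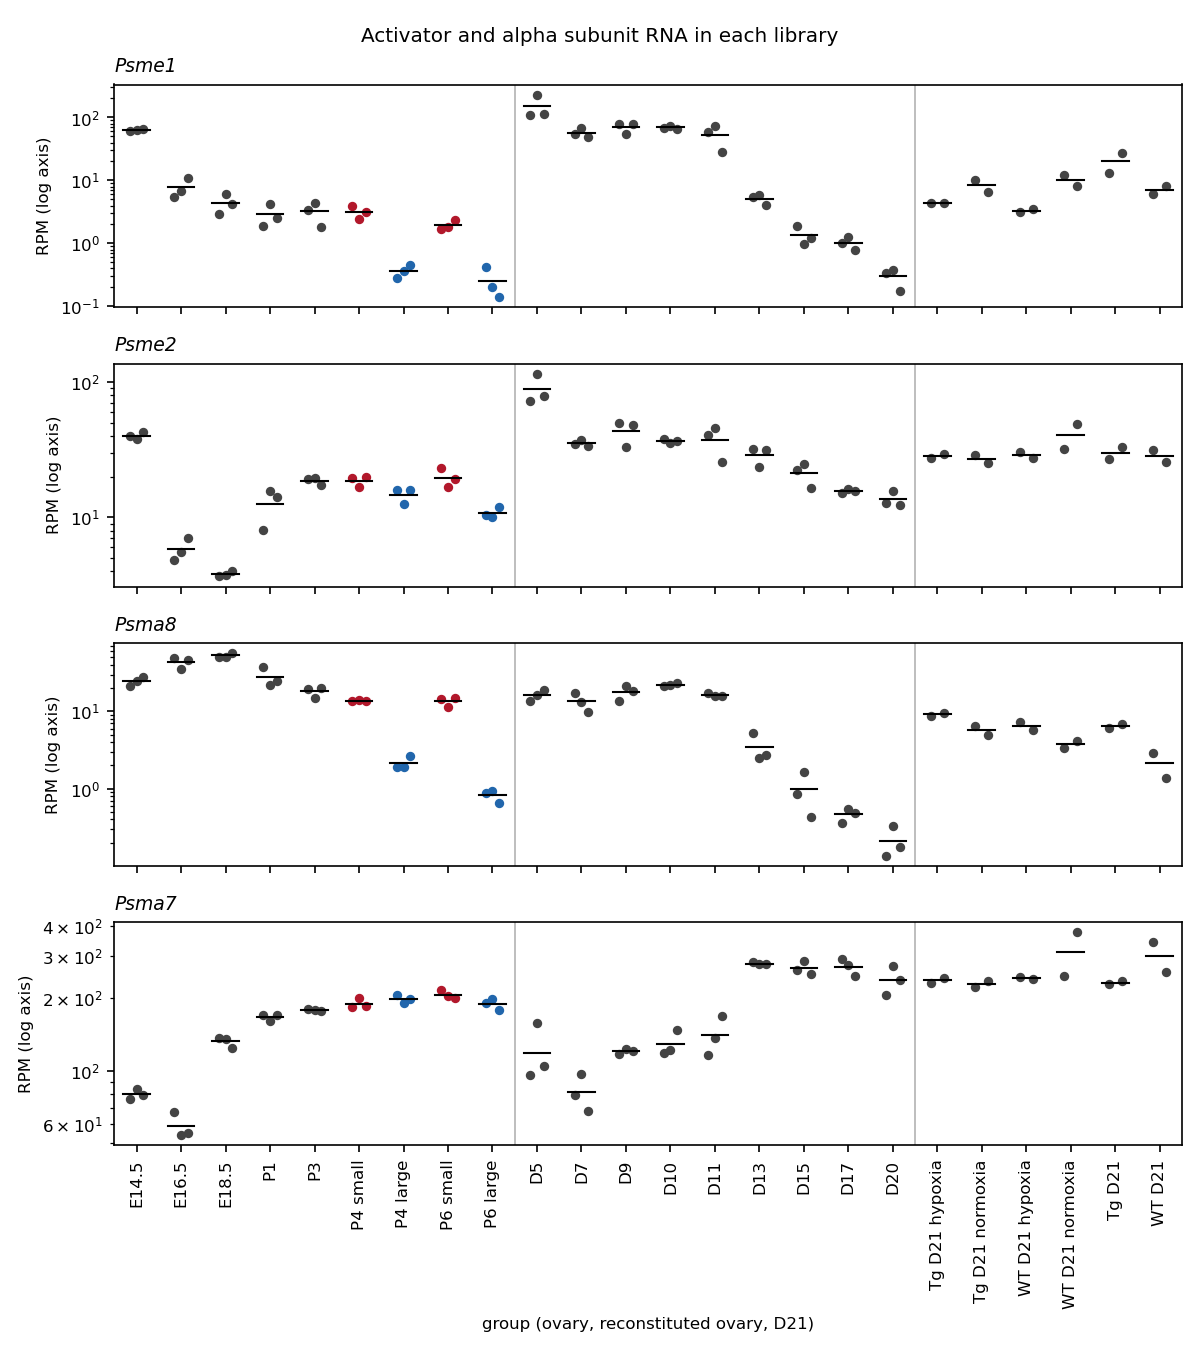
RPM of Psme1, Psme2, Psma7 and Psma8 in each library (points, log axis) over the ovary stages and the culture course. Psme1 and Psme2 drop between E14.5 and E16.5, only Psme2 returns by P3, and Psma8 falls below 1 RPM in large oocytes at P6 and at D17 and D20.

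From E18.5 to P3, when follicles form, 11 of 42 members were higher and 18 lower, against 26.0% and 32.3% of all genes, with medians of -0.22 for the members and -0.07 for all genes. The alpha ring accounted for most of the falls in the core. Psma1 had 70.2, 59.7 and 60.4 RPM at P3, against 122, 114 and 117 RPM at E18.5 (-0.88, adjusted p = 6.37e-09), and Psma2 to Psma6 and Psma8 fell too. Psma7 was the exception among the alpha subunits and rose (0.43), as did all 3 catalytic subunits, Psmb5 (0.53), Psmb6 (0.42) and Psmb7 (0.26). In the cap the ubiquitin receptor Psmd4 rose, with 298, 300 and 313 RPM at P3, against 186, 183 and 186 RPM at E18.5 (0.71, adjusted p = 1.6e-09), while the lid subunit Psmd7 fell (-0.58). Every call named here for P3 against E18.5 held under all 4 scalings.

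In culture, D11 against D5 gave 8 of 43 members higher and 6 lower. Of all genes 31.2% were higher, 2413 of 16065 were lower and 46.3% were called in either direction. The medians were 0.01 for members and 0.17 for all genes. Psmd9 rose here too, with 37.6, 34.6 and 52.4 RPM at D11, against 12.46, 20.2 and 20.2 RPM at D5 (1.20, adjusted p = 1.58e-05). Psme1 fell, with 58.3, 72.3 and 28.3 RPM at D11, against 108, 230 and 115 RPM at D5 (-1.51, adjusted p = 0.000109), and Psme2 fell with it (-1.24). The catalytic Psmb5 (-0.54) and Psmb6 (-0.58) were called lower, and D5 replicate 2 was the highest library of both, with 363 RPM of Psmb5 beside 168 and 196 RPM in the other D5 libraries. Without D5 replicate 2 neither was called, with differences of -0.21 (adjusted p = 0.197) for Psmb5 and -0.28 (adjusted p = 0.059) for Psmb6, while Psme1 (-1.16), Psme2 (-1.04) and Psmd9 (1.31) were still called. In all, 13 members were then higher and 3 lower, against 4524 and 2650 of 16054 genes. Psmb8, listed at 0 in all 3 D5 libraries, had 1.62, 3.41 and 1.16 RPM at D11 (adjusted p = 6.1e-07). Psmb9 had 1.72, 3.46 and 1.29 RPM at D11, against 0.246, 0.789 and 0.511 RPM at D5 (1.02, adjusted p = 0.00264), and it overlaps Tap1.

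Markers of other cells were high at the same time. Granulosa markers summed to 377 to 711 RPM at D11, against 42.2 to 64.6 RPM at D5 (10 of 14 called higher, 0 lower), and stroma and theca markers to 201 to 1939 RPM at D11, against 10.3 to 25.5 RPM at D5 (11 of 11 higher). Blood and immune markers summed to 44.1 to 573 RPM at D11, against 11.6 to 13.5 RPM at D5 (6 of 8 higher), with the haemoglobin genes at 0 in both groups. At D13 the granulosa sum was 7.92 to 17.6 RPM, and Psmb8 and Psmb9 were listed at 0 in all 3 libraries. Their part in the inducible subunits was not tested.

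From D11 to D20 the cultured oocytes grew, and 6 of 43 members were higher and 23 lower, against 22.5% and 55.1% of all genes (77.6% in either direction), with a member median of -0.38 and a median of all genes of -0.66. Psmd14 had 38.5, 51.8 and 40.2 RPM at D20, against 129, 137 and 128 RPM at D11 (-1.58, adjusted p = 1.34e-11). Psmb4 (-1.19), Psma3 (-1.16) and Psmd13 (-0.98) fell beside it. Psmd9 had 95.3, 104 and 93.7 RPM at D20, against 37.6, 34.6 and 52.4 RPM at D11 (1.23), and Psma7 had 205, 272 and 237 RPM at D20, against 116, 136 and 169 RPM at D11 (0.76, adjusted p = 0.000166). On the rescaled values the split turned round to 19 higher and 10 lower with a median of 0.26, against 34.4% of all genes higher and 40.3% lower, and Psmb7 changed sign. The falls of Psmd14, Psma3, Psmb4, Psma8, Psmb8, Psmb9, Psmb10, Psme1 and Psme2 and the rises of Psmd4, Psmd8, Psmd9, Psma7, Psmb11 and Psme3 held under all 4 scalings.

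Psma8 and Psme1 fell to the level of a few reads in this interval. Psma8 had 17.1, 16.0 and 15.8 RPM at D11, 5.20, 2.5 and 2.75 RPM at D13 and 0.136, 0.326 and 0.176 RPM at D20, a log2(RPM + 1) difference of -3.84 for D20 against D11 (adjusted p = 6.98e-13). Psme1 had 5.49, 5.78 and 4.05 RPM at D13, 1.91, 0.994 and 1.24 RPM at D15 and 0.339, 0.381 and 0.176 RPM at D20 (-5.28, adjusted p = 2.49e-14). Psme2 kept a higher level, with 31.9, 23.4 and 31.3 RPM at D13 and 12.8, 15.8 and 12.4 RPM at D20 (-1.36). Psmb10, a catalytic subunit of the immunoproteasome, had 0.272, 0.924 and 0.762 RPM at D20, against 7.26, 7.03 and 5.79 RPM at D11 (-2.24, adjusted p = 7.03e-08). The marker sums of other cells fell over the same days, to 49.8 to 56.9 RPM for granulosa (45.6 RPM of it from Gata4), 2.39 to 4.07 RPM for stroma and theca and 1.97 to 2.75 RPM for blood and immune cells at D20, and their part in these falls was not tested. Psmb11 rose, with 8.22, 11.3 and 9.20 RPM at D20, against 2.82, 0.892 and 3.48 RPM at D11 (1.72, adjusted p = 1.61e-05), and it was also higher in large than in small oocytes of the ovary.

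Cultured oocytes at D20 were set against large oocytes at P6. Of 43 members 1 was called higher and 0 lower, against 9.62% and 4.59% of all genes, although strain and source differ with the groups and cannot be told apart from them. The called member was the chaperone Psmd5, with 99.9, 102 and 94.5 RPM at D20, against 75.6, 79.6 and 83.7 RPM in P6 large oocytes (0.31, SE 0.0816, adjusted p = 0.00728). The call on Psmd5 was lost with edgeR (adjusted p = 0.0797) and without P6 large replicate 1 (adjusted p = 0.0565 with limma). The log2 differences of the members ran between -0.59 (Psma8) and 0.32 (Psma7), with standard errors of 0.0719 to 0.319. The core-to-cap ratio was 0.629, 0.672 and 0.666 at D20, against 0.669, 0.678 and 0.656 in P6 large oocytes.

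Hypoxia was compared with normoxia at D21, where the study asked whether low oxygen brings oocytes into a dormant state. In WT 1 of 43 members was higher in hypoxia and 4 were lower, with a member median of -0.26. Of all genes 15.9% were higher and 6.55% lower (22.5% in either direction), with a median of 0.14. Among all genes of 1000 to 2000 nt, 3.29% were higher and 12.49% lower, with a median of -0.16. The members were not limited to that length. Psmd2, the scaffold subunit of the base, had 679 and 707 RPM in WT hypoxia, against 505 and 398 RPM in WT normoxia (0.63, adjusted p = 0.0173). Psma1 had 66.9 and 75.5 RPM in WT hypoxia, against 107 and 153 RPM in WT normoxia (-0.84, SE 0.186, adjusted p = 0.0159). Psma2 (-0.75, adjusted p = 0.0289) and Psma5 (-0.64, adjusted p = 0.0437) were lower as well. Psme1 had 3.10 and 3.55 RPM in WT hypoxia, against 12.0 and 8.15 RPM in WT normoxia (-1.34, adjusted p = 0.0231). The groups did not overlap for any of the 5 genes, and their calls held under all 4 scalings. Of all genes, 40.8% were higher without overlap in WT hypoxia and 23.5% lower.

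These calls rest on few libraries. WT normoxia replicate 2 is rich in short transcripts, and its core-to-cap ratio was 0.978, beside 0.642 in the other WT normoxia library and 0.533 and 0.530 in WT hypoxia. Without WT normoxia replicate 2, 1 member and 1295 of 14384 genes were called. Without WT normoxia replicate 1, 18 members and 41.5% of all genes were called. Without WT hypoxia replicate 1 or replicate 2, 0 members were called, and 0.111% and 0.417% of all genes. When both short-transcript-rich D21 libraries were left out together, a setting added after the data had been seen, WT normoxia kept 1 library, whose spread is taken from the other groups. Then 5 members were higher and 5 lower in WT hypoxia, against 21.2% and 14.2% of all genes (35.4% in either direction). Psma1 (-0.58), Psma2 (-0.45), Psma5 (-0.35), Psme1 (-1.59) and Psmd2 (0.46) were among them. Granulosa markers summed to 28.1 to 39.7 RPM in WT hypoxia, against 132 to 316 RPM in WT normoxia (7 of 12 lower, 0 higher), and their part in the fall of Psme1 was not tested.

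In Foxo3dNES Tg oocytes limma called 0 members between hypoxia and normoxia, against 1.02% of all genes in either direction (0.153% higher). With limma 3 of 43 members had an unadjusted p under 0.05, against 2018 of 14392 genes. Both edgeR and DESeq2 called 0 members, against 2.54% and 7.25% of all genes. Psmc1 had 270 and 294 RPM in Tg hypoxia, against 217 and 205 RPM in Tg normoxia (0.42, adjusted p = 0.186). Psma8 had 8.70 and 9.67 RPM in Tg hypoxia, against 6.5 and 5.01 RPM in Tg normoxia (0.60, adjusted p = 0.349). Psmd4 had 462 and 477 RPM in Tg hypoxia, against 386 and 366 RPM in Tg normoxia (0.32, adjusted p = 0.314). These 3 genes had the unadjusted p under 0.05, and their groups did not overlap. Both Tg hypoxia libraries lay above both Tg normoxia libraries for 18 of 20 cap members and 7 of 19 core members, against 42.8% of all genes. Both lay below for 1 cap and 4 core members, against 28.4% of all genes. In WT both hypoxia libraries lay above both normoxia libraries for 9 of 20 cap members and 1 of 19 core members, against 40.8% of all genes, and below for 6 cap and 14 core members, against 23.5% of all genes. Without the short-transcript-rich libraries, which belong to neither Tg group but share the estimate of spread, 11 members were called in Tg, 10 higher and 1 lower, against 25.4% of all genes. They included Psmc1, Psmd4, Psmd13 (0.41) and Psma8 on the higher side and Psma1 (-0.32) on the lower.

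**Figure D5:**
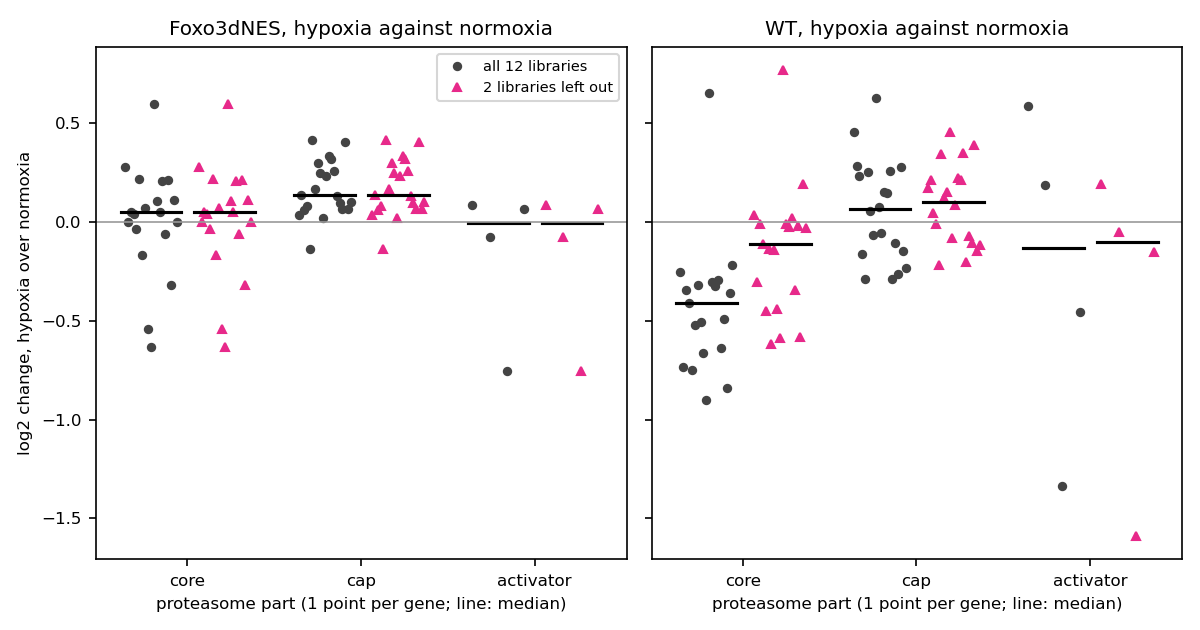
Log2 difference (hypoxia minus normoxia, log2(RPM + 1)) at D21 of each tested member in Foxo3dNES Tg and in WT, by part. In Tg the cap median is 0.14 and the core median 0.05, and in WT the cap median is 0.07 and the core median -0.41. These WT medians include the WT normoxia library rich in short transcripts. Without the short-transcript-rich libraries, which leaves WT normoxia without a replicate, the middle core member in WT was Psma3, at -0.11.

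In a test of whether the hypoxia effect differed between Tg and WT, limma called 0 members and 0.00% of all genes. With limma 1 of 43 members had an unadjusted p under 0.05, against 869 of 14392 genes. Both edgeR and DESeq2 called 0 members. Without WT normoxia replicate 1 limma called 10 members and 16.1% of all genes, and without WT normoxia replicate 2, rich in short transcripts, 0 members and 0.00% of all genes. The comparisons of Tg with WT in the same oxygen use the same libraries. For Tg against WT in hypoxia limma, edgeR and DESeq2 called 0 members, and limma called 0.00695% of all genes. With limma 0 members had an unadjusted p under 0.05, against 68 of 14392 genes. For Tg against WT in normoxia limma and edgeR called 0 members and DESeq2 11. Of all genes limma called 0.00695%, and DESeq2 called 14.7% of those with an adjusted p. With limma 12 of 43 members had an unadjusted p under 0.05, against 3454 of 14392 genes. Without WT normoxia replicate 1 limma called 21 members and 35.9% of all genes there, and without WT normoxia replicate 2, 0 members and 0.00695% of all genes.

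With no oxygen given in the label, 2 of 43 members were higher in Tg than in WT and 0 lower, against 6.25% of all genes higher and 6.85% called in either direction. Psma8 had 6.16 and 6.77 RPM in Tg, against 2.89 and 1.39 RPM in WT (1.29, adjusted p = 0.034). Psme1 had 13 and 27.6 RPM in Tg, against 6.19 and 8.05 RPM in WT (1.31, adjusted p = 0.0481). The groups did not overlap for either gene. With 2 libraries per group this was common: in WT hypoxia against WT normoxia 40.8% of all genes lay above without overlap and 23.5% below. The share of all genes without overlap was not counted for Tg against WT with no oxygen given. With edgeR 0 members were called, and leaving out WT replicate 1, Tg replicate 1 or Tg replicate 2 also gave 0. Without the short-transcript-rich libraries, where WT keeps 1 library, 7 members were higher and 0 lower in Tg, against 23.2% and 9.46% of all genes (32.6% in either direction). These were Psma8 (1.64), the inducible Psmb8 (1.26), Psmb9 (1.3) and Psmb10 (1.28), Psme1 (1.15) and, in the cap, Psmc3 (0.31) and Psmd13 (0.51). Granulosa markers summed to 535 to 788 RPM in Tg, against 250 to 306 RPM in WT, and their part was not tested.

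Inducible catalytic subunits stayed rare beside the constitutive ones. Psmb8, Psmb9 and Psmb10 together made 0.161 to 1.05% of the reads of all 6 catalytic genes in vivo, 1.25 to 2.23% in the culture from D9 to D11 and 0.0566 to 0.331% from D13 to D20. At D21 the share was 0.621 and 0.654% in Tg hypoxia, 1.04 and 0.694% in Tg normoxia, 1.82 and 2.03% in Tg with no oxygen given, 0.638 and 0.573% in WT hypoxia, 0.654 and 1.01% in WT normoxia and 0.833 and 0.514% in WT with no oxygen given. The 4 groups with the highest shares (D9, D10, D11 and Tg with no oxygen given) also had the highest sums of granulosa markers, with group means of 476 to 662 RPM, against at most 278 RPM elsewhere, and the part of other cells was not tested. Psmb8 was listed at 0 in all 3 libraries of P4 large, P6 small and P6 large oocytes. Of 10 antigen presentation genes 7 were higher and 0 lower at D11 than at D5. Of all genes 31.2% were higher there and 2413 of 16065 lower. Of the same 10 genes 1 was higher and 8 lower at D20 than at D11, where 22.5% of all genes were higher and 55.1% lower.

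Genes that build, regulate or feed the proteasome were taken as a list of 37, of which 33 were tested. Between E18.5 and E14.5, 15 were higher and 9 lower, against 40.0% and 30.0% of all genes, with 6 of 7 assembly factors higher. The core assembly factor Pomp had 131 ± 15.9 RPM at E18.5 and 46.1 ± 1.69 RPM at E14.5 (1.48, adjusted p = 4.05e-13; SD, n = 3 each), and Akirin2, which carries proteasomes into the nucleus, rose by 1.23. Uba6, a ubiquitin-activating enzyme, fell (-1.64) and fell again to P3 (-0.99). At P6 17 were higher in small oocytes and 10 lower, against 51.3% and 22.1% of all genes. The alpha ring chaperone Psmg2 had 46.1 ± 6.34 RPM in small oocytes, against 11 ± 1.46 RPM in large ones (1.97, adjusted p = 4.88e-12), and Rps27a, a source of ubiquitin, rose by 1.93. At P4 the counts were 17 and 9, against 48.7% and 20.5% of all genes, with Psmg1 (1.51) and Psmg2 both higher.

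At P3 against E18.5, 6 of the 33 were higher and 13 lower, against 26.0% and 32.3% of all genes, with the transcription factor Nfe2l2 lower (-1.09). From D5 to D11, 4 were higher and 4 lower, against 31.2% of all genes higher and 2413 of 16065 lower. From D11 to D20, 9 were higher and 17 lower, against 22.5% and 55.1% of all genes. Psmg2 stood at 12.1 ± 2.53 RPM at D20 and 68.3 ± 5.06 RPM at D11 (-2.42). For D20 against P6 large oocytes 1 was called, Ubqln4 (0.59), against 14.2% of all genes in either direction. In WT hypoxia, where 15.9% of all genes were higher and 6.55% lower, 2 were higher, among them the ubiquitin ligase Ube3c (0.63), and 1 was lower, Nfe2l2 (-1.18). In the other D21 comparisons limma called 0 of the 33.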

How the data were processed

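Poly(A) RNA was made into directional libraries with 12 PCR cycles, per the labels' protocols, and the authors deposited RPM (reads per 1e+06 reads) for 24062 genes in 66 libraries. Per the submitters' processing notes, R 3.4.4, featureCounts 1.5.1, Bowtie2 2.0.13 and TopHat2 were used with mm10; their roles, the annotation and the strand setting are not given in the sources used here. Whole reads were recovered for 99.99994% of values, within 0.01 of a read. Groups came from the labels, and the series' design text calls the replicates biological; p-values measure only the spread between these libraries. Intervals of counting do not apply to PCR reads without molecular identifiers, and the level of 3 reads covers counting error only.

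Groups were compared with limma-trend (R 4.3.3, limma 3.58.1), two-sided, on log2(RPM + 1) with 1 mean per group, for genes with a mean of at least 1 RPM in at least 1 group, with Benjamini-Hochberg adjustment over all genes and a threshold of 0.05. Differences are on that scale and understate changes of low genes. Fits held 27 in vivo libraries, 27 course libraries, these 54 for D20 against P6 large, and 12 at D21. Alternatives were a pseudocount of 0.1, no filter, median-of-ratios scaling, DESeq2 1.42.0 or edgeR 4.0.16 (quasi-likelihood with TMM factors) on recovered reads, a replicate block and leaving out each library; a crossed block and leaving out 2 D21 libraries were added after seeing the data. Scripts were tested on simulated data.

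The members and lists were chosen with earlier results of these data known. Named were Psmb5 to Psmb11, Psma7, Psma8 and Psme1 to Psme4 always, and per comparison and family the called member without overlap that rose most and that which fell most with a mean of at least 20 RPM in the higher group, plus up to 3 accessory genes, of which 1 is not reported here; other names are counts, ranges or were chosen after their values were seen. Levels per kilobase used the longest principal transcript (GENCODE M21).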

Additional observations from a re-analysis of the deposited data

Results flagged for a closer look

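The size difference of Psmb10, the inducible catalytic subunit, differed between the ages by a test of the difference itself. Its log2 difference between small and large oocytes was larger at P6 than at P4 by 0.82 (adjusted p = 0.0204). The call was lost with edgeR (adjusted p = 0.0621) and without P4 large replicate 3, P6 small replicate 1 or P6 large replicate 3. At these sizes and ages all values of this gene stayed below 3 RPM.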

How the results depend on the processing

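Of 2922 repeats of the results of named genes, 2685 kept the call or its absence. A further 137 lost the call, 85 gained it and 15 changed the sign of a called result. Sign changes were counted only where the main result was called. These 15 sign changes came with rescaling (median-of-ratios, edgeR and DESeq2, in that order below). For Psmb6 the log2 difference was -0.23, -0.18 and -0.23 at P4 and -0.25, -0.18 and -0.25 at P6, and for Psmb7 -0.19, -0.13 and -0.19 at P4, -0.29, -0.22 and -0.29 at P6 and 0.29, 0.34 and 0.30 for D20 against D11. In the same order, these settings moved the median of all genes from 0.340 (RPM) to 0.0145, 0.0779 and 0.0245 at P4. At P6 it moved from 0.409 to 0.00257, 0.0771 and 0.00696. For D20 against D11 it moved from -0.656 to -0.170, -0.189 and -0.235.

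The difference between ages in the size effect (1 member) gave 5 with DESeq2, which called 11.1% of all genes with an adjusted p. It gave 2 with no filter, with a pseudocount of 0.1 and with the replicate block, which called 5.52%, 7.77% and 8.47% of all genes. D20 against P6 large (1) gave 3 with DESeq2, which called 14.6% of all genes with an adjusted p, and 3 with median-of-ratios (16.2% of all genes). It gave 2 with edgeR, no filter and a pseudocount of 0.1, which called 11.7%, 11.2% and 12.8% of all genes. WT hypoxia (5) gave 15 with DESeq2, which called 32.8% of all genes, and 10 without the short-transcript-rich libraries. Tg hypoxia (0) gave 11 without them. Tg against WT in normoxia (0) gave 11 with DESeq2, which called 14.7% of all genes with an adjusted p. Tg against WT with no oxygen given (2) gave 0 with edgeR, no filter and the replicate block, 1 with median-of-ratios and a pseudocount of 0.1, and 7 without the short-transcript-rich libraries. For this last comparison edgeR and the replicate block each called 0.00695% of all genes. The shares were 2.40% with no filter, 6.17% with median-of-ratios and 2.03% with a pseudocount of 0.1. The causes were not tested.

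Leaving out 1 library at a time gave 29 to 33 members for E18.5 against E14.5, 28 to 31 for P3 against E18.5, 22 to 26 at P4, 28 to 31 at P6, 0 to 3 for the difference between ages, 11 to 18 for D11 against D5, 28 to 31 for D20 against D11, 0 to 4 for D20 against P6 large, 0 to 18 for WT hypoxia, 0 to 0 for Tg hypoxia, 0 to 21 for Tg against WT in normoxia, 0 to 0 in hypoxia, 0 to 4 with no oxygen given and 0 to 10 for the difference between genotypes. Among all genes, Tg hypoxia gave 147 calls with limma, 365 with edgeR and 1044 with DESeq2.

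Equal replicate numbers were not taken as pairs. In no comparison with 3 pairs was every correlation of same-numbered libraries above 0.1, a cut-off that weak pairing might not reach. The correlations were 0.0548 to 0.145 for D20 against P6 large and 0.122 for Tg against WT in normoxia. They were -0.165 for WT hypoxia and -0.164 for Tg hypoxia. The replicate block left the other member counts within 1.5 times, for example 31 for E18.5 against E14.5 and 4 for WT hypoxia. With crossed pairs at D21, 4 members were called in WT hypoxia and 0 in Tg hypoxia. Depth limits Psme2b, Psmb8 and Psmb9 in most groups, Psme1 in large oocytes, and Psme1 and Psma8 at D20 of culture. Their values there are near 3 reads or below.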
